A study of Mus musculus with 4 samples.

Results

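Circadian clock genes were followed in YAMC cells, a colon epithelial line from young adult mice, after 16 h in conditioned medium of the probiotic bacterium Lactobacillus GG (LGG). The set comprised 10 of the 12394 genes named on the array, namely Per1, Per2, Per3, Cry1, Cry2, Clock, Dbp, Nr1d1, Nr1d2 and Bhlhe40. All probe sets assigned to one of these symbols in the platform annotation were taken, which gave 16 probe sets of the 22690 on the array. The LGG group and an untreated group, of the same line, had 2 mouse 430A arrays each, and by the titles each of 2 dates (date 1 and date 2) holds 1 array of either group. Cells kept in unconditioned medium were not analysed here, and no time of day is known for any array. YAMC cells carry a temperature-sensitive viral T antigen under an interferon-inducible promoter, and they are 1 established line. No label states that separate cultures were used, so p-values measure only the spread between these arrays, which may be technical.

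The clock is a feedback loop of transcription. The transcription factors CLOCK and BMAL1 (the product of Arntl) bind E-box elements and switch on the Per and Cry genes, whose protein products later repress CLOCK and BMAL1. The same factors drive Nr1d1 and Nr1d2, which encode the nuclear receptors REV-ERB alpha and beta that repress Arntl, as well as Dbp, an activator of D-box elements, and Bhlhe40 (DEC1), a repressor that competes for E-boxes. Almost every cell type runs this loop, and in cultured cells it is known to be reset by serum, glucocorticoids and other signals, Per1 being a gene that responds quickly.

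Promoter sequences show which of these elements stand close to the start of each gene, and the windows that held at least 1 of the elements searched are given here. RefSeq entries (build GRCm38.p6) matched 8 of the 10 genes, with 11 start sites in all. Per2 and Bhlhe40 had none and are named only. The 250 bases before each start were searched on both strands for the E-box CACGTG, the related E-prime box CACGTT, the D-box TTATGTAA, the binding core of ROR and REV-ERB receptors (TAGGTCA or TGGGTCA), the cyclic AMP element TGACGTCA and its short form TGACG, which the long form contains, and the heat shock element GAANNTTC. Capitals mark the matches found.
Per1, start 1, chr11:69098699-69098948, plus strand: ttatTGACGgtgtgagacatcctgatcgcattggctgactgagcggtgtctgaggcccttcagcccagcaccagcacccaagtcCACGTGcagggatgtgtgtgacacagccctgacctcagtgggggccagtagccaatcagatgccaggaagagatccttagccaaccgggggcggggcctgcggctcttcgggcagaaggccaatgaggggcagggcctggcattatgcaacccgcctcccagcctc
Per1, start 2, chr11:69099902-69100151, plus strand: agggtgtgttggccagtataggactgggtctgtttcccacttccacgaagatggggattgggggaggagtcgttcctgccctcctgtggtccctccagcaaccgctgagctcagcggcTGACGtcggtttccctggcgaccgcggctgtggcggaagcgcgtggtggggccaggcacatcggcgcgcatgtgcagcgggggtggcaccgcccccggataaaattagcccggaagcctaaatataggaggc
Nr1d1, chr11:98775378-98775627, minus strand: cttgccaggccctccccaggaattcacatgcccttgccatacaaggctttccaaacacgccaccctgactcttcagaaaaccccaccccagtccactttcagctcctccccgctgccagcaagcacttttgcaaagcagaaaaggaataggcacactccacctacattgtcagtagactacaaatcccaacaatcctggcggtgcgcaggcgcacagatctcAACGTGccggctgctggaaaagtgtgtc
Cry2, chr2:92434070-92434319, minus strand: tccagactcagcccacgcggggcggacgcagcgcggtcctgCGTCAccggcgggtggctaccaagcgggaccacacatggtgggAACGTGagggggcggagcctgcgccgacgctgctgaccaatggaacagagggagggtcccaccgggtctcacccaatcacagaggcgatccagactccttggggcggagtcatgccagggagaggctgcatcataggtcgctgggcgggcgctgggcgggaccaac
Cry1, chr10:85185055-85185304, minus strand: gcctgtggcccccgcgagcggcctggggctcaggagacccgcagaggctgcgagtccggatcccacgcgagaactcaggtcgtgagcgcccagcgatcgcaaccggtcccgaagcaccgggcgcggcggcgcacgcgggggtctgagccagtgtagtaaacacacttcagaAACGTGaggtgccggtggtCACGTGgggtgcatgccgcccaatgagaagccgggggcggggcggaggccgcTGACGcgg
Per3, chr4:151044666-151044915, minus strand: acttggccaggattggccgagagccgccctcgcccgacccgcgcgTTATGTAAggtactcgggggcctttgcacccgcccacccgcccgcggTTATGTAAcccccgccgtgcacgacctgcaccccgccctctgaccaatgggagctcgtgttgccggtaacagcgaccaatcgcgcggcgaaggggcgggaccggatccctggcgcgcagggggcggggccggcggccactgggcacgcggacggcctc

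The E-box was found before Per1 (start 1) and Cry1, against 6.02% of the 32851 mouse promoter windows of the same length. The E-prime box was found before Cry1, Cry2 and Nr1d1, against 3.85% of all windows, and in Nr1d1 it begins 28 bases before the start. Per3 held 2 copies of the D-box, beginning 205 and 158 bases before its start, an element present in 0.819% of all windows. The short cyclic AMP element was found before both starts of Per1 and before Cry1 and Cry2, against 17.8% of windows. The windows of Clock, Dbp and Nr1d2 held none of the motifs, and no member held the long cyclic AMP element (1.55% of windows), the receptor core (5.38%) or the heat shock element (6.69%). These matches are a description of letters in a window.

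Expression values were deposited as linear intensities. The mean intensity of the arrays, trimmed by 2% at either end, was 500.1 to 513.5, and no detection calls were used here. A probe set was tested when it had values on all arrays and a mean of at least 101, or 20% of that level, which left 10333 probe sets for 6952 genes. Of the 16 clock probe sets, 11 were tested, covering 8 genes, 4 were below the limit, including all those of Per2 and Cry2, and 1 of Dbp had no value at date 1. Of 12 markers of intestinal epithelium on the array, 3 keratin genes (Krt8, Krt18 and Krt19) had a mean of at least 101. The defining genes Cdh1 (8.7 to 41.8), Epcam (6 to 9) and Vil1 (1.7 to 10.5) did not. Of 7 fibroblast markers 4 reached this mean, and Pdgfrb, Thy1 and Lum did not. Markers of every other type reached it too, 2 of 7 immune, 1 of 4 endothelial, 2 of 3 muscle and 1 of 3 neuronal and glial. Reaching this mean therefore does not by itself name a cell type. The endothelial one, Kdr, measured 136.2 and 128.9 untreated at dates 1 and 2, and 396.5 and 329.2 with LGG. Col1a1 (6569 to 10156) and Dcn (4085 to 8376) were bright on every array, as was Acta2 of the muscle markers (4255 to 5042). Dcn, Col1a2 and Pdgfra were lower on both LGG arrays than on both untreated arrays, while Col1a1 overlapped between the groups. Of the dimmer fibroblast markers, Pdgfrb was higher on both LGG arrays (65.6 and 80.1, against 62.3 and 48.2), and Thy1 and Lum overlapped. Among the keratin genes, Krt18 was higher on both LGG arrays, Krt19 was lower on both, and Krt8 overlapped. The summed intensity of 7 fibroblast markers was 17552 to 20204 on the untreated and 13316 to 14841 on the LGG arrays, and that of the 12 epithelial markers was 2443 to 3307 and 2921 to 3415. The Gapdh control probe sets, whose 3' to 5' ratio reflects RNA integrity, gave 0.805 and 0.784 for untreated cells at dates 1 and 2 and 0.931 and 0.768 for LGG. The part of these differences in the results below was not tested.

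The comparison of LGG with untreated cells asks which clock transcripts differ after the conditioned medium. Bhlhe40 fell 1.93-fold and was the only clock gene that passed the test. Per1 and Nr1d1 were higher on both LGG arrays, by a fitted 1.76-fold and 1.71-fold, and did not pass. Clock, Cry1, Dbp, Per3 and Nr1d2 had fitted changes between -0.18 and 0.40 on the log2 scale. Cry2 was higher and Per2 lower on both LGG arrays, at intensities below the limit for testing.

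Bhlhe40 measured 509 and 981.9 in untreated cells at dates 1 and 2, and 293.9 and 428.6 in LGG cells. The LGG arrays lay below both untreated arrays, and the untreated arrays differed from each other more than the LGG array of date 1 differed from its untreated partner. The mean went from 745 ± 334 to 361 ± 95.2 (SD, n = 2 arrays per group), with log2 ratios within dates 1 and 2 of -0.74 and -1.15. The fitted log2 change, with the date as a block, was -0.95 ± 0.23 (SE; limma, adjusted p = 0.0288). Like all log2 values here it was computed on log2(intensity + 25.2), a scale that understates the change of dim genes, and its SE rests mostly on variance shared across genes (12.5 prior against 1 residual degree of freedom). Without the date as a block the adjusted p by limma was 0.23, with a common median for the arrays 0.055 and with no filter on dim probe sets 0.155. The fit with no filter called 0 of 16319 probe sets, and that without the block 97 of 10333. With 1 array left out and no block, the change went to -0.49 without untreated replicate 2, the brightest array for this gene. The change went to -1.40 without untreated replicate 1. Such fits leave 1 array in a group, so calls in them are not read gene by gene. They also break the pairing by date, so their changes mix the date difference with that of the treatment.

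This 1 call was 9.09% of the 11 clock probe sets and 12.5% of the 8 clock genes tested, 0 called higher and 1 called lower. Over the whole array 6.55% of probe sets (2.69% higher and 3.86% lower) and 6.5% of genes (3.01% higher and 3.5% lower) were called. The median log2 change of the 8 genes was -0.05, against 0.03 over all genes, and the median absolute change was 0.29, against 0.24. With 1 call among 8 genes, the share cannot be told from the background. At an unadjusted p under 0.05 there were 3 clock probe sets (Bhlhe40, Per1 and Nr1d1) by limma, against 20.5% of all probe sets. The smallest two-sided p of an exact permutation of 2 against 2 arrays, with the dates ignored, is 0.333. Permuting only within the dates allows fewer arrangements.

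**Figure D1:**
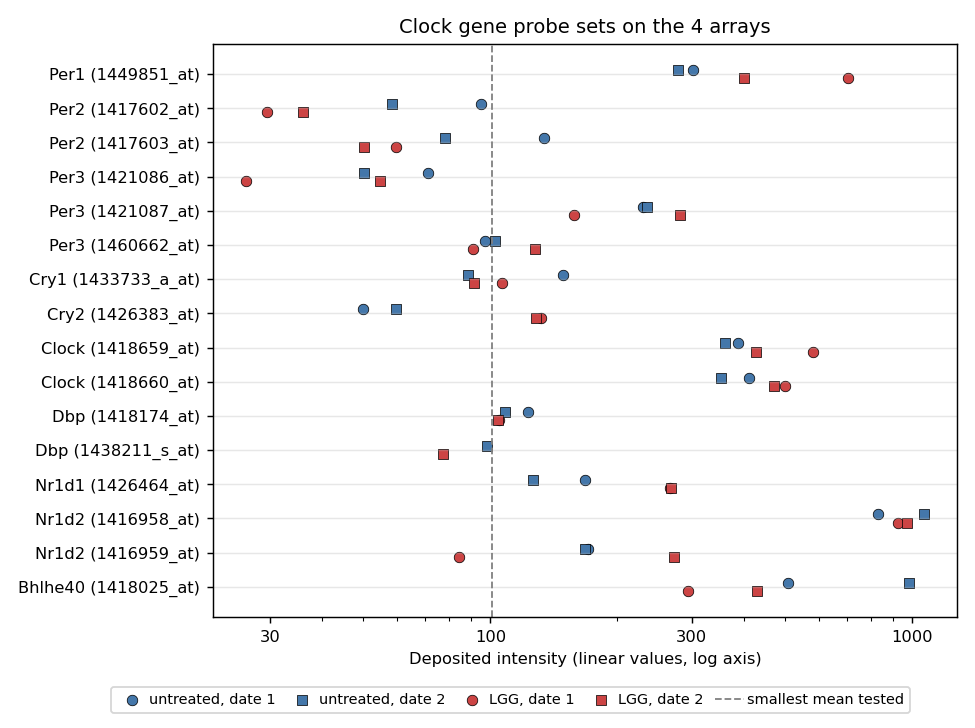
Intensity (log axis) of the 16 clock probe sets on each array; circles are date 1, squares date 2, blue untreated and red LGG, and the dashed line is the smallest mean intensity tested (101). The red points of Bhlhe40 (293.9 and 428.6) lie left of its blue points (509 and 981.9), and those of Per1, Cry2, Clock and Nr1d1 lie right of theirs.

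Among the activators, Clock encodes the histone acetyltransferase partner of BMAL1. Its brighter probe set measured 385.6 and 359.8 in untreated cells at dates 1 and 2, and 581 and 426 in LGG cells. Its other probe set measured 410.6 and 351.4 untreated, and 498.6 and 470.5 with LGG. In both probe sets the LGG arrays lay above the untreated arrays. The fitted log2 changes were 0.40 ± 0.24 and 0.33 ± 0.23 (SE; limma, adjusted p = 0.383 and 0.468), so the difference did not pass in either. Clock was among the brighter members, and its probe sets had log2 ratios of 0.56 and 0.27 at date 1 and 0.23 and 0.40 at date 2.

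The Per genes encode the PERIOD proteins, which enter the nucleus with the cryptochromes as repressors. Per1, whose windows hold an E-box and 2 copies of the short cyclic AMP element, measured 302.9 and 277.9 in untreated cells at dates 1 and 2, and 702.8 and 398.8 in LGG cells. Both LGG arrays were above both untreated arrays, and the LGG array of date 1 stood highest. The fitted log2 change was 0.82 ± 0.25 (SE; limma, adjusted p = 0.0731), with ratios within the dates of 1.15 and 0.48. Without LGG replicate 1 the change was 0.43, and without LGG replicate 2 it was 1.21 (no block).

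Per2 was dim. The brighter of its probe sets measured 134 and 78.2 in untreated cells at dates 1 and 2, and 59.8 and 50.2 in LGG cells. The dimmer one measured 95.1 and 58.3 untreated, and 29.6 and 36 with LGG. The LGG arrays were below the untreated arrays in both, opposite to Per1. In a fit of all probe sets without the filter the log2 changes were -0.68 ± 0.30 and -0.79 ± 0.30 (SE; limma, adjusted p = 0.382 and 0.318), and that fit called 0 of 16319 probe sets, with 14.1% at an unadjusted p under 0.05.

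Per3 had 3 probe sets and no common direction. The brightest measured 229.9 and 235.1 in untreated cells at dates 1 and 2, and 157.7 and 282.2 in LGG cells. The LGG array of date 1 was the lowest and that of date 2 the highest, so the groups overlapped (log2 change -0.12 ± 0.27, SE; limma, adjusted p = 0.859). The other tested probe set ran from 91.1 to 127.5 with a log2 change of 0.09, and the dimmest ran from 26.4 to 71.1. In all 3 the ratio was negative at date 1 (-0.48, -0.07 and -0.90) and positive at date 2 (0.24, 0.26 and 0.09).

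The cryptochrome genes Cry1 and Cry2 encode the strongest repressors of CLOCK and BMAL1. Cry1, with an E-box and an E-prime box in its window, measured 148.5 and 88.3 in untreated cells at dates 1 and 2, and 106.8 and 91.3 in LGG cells. The groups overlapped (log2 change -0.18 ± 0.29, SE; limma, adjusted p = 0.786). Cry2 measured 49.9 and 59.7 untreated, and 132.2 and 128 with LGG. The LGG arrays were close to each other and 2.65 and 2.14 times their untreated partners on the linear scale. Without the filter its log2 change was 0.96 ± 0.29 (SE; limma, adjusted p = 0.231), the largest rise among the 15 clock probe sets with values on all arrays, at an intensity where the background is not known.

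Nr1d1 and Nr1d2 encode the REV-ERB receptors of the second loop. Nr1d1 measured 168.1 and 126.1 in untreated cells at dates 1 and 2, and 267 and 267.5 in LGG cells. The LGG arrays lay above the untreated arrays and differed little between the dates. The fitted log2 change was 0.77 ± 0.26 (SE; limma, adjusted p = 0.103), and with 1 array left out it ran from 0.60 to 0.95. Nr1d2, the brightest member, measured 828.7 and 1064.5 untreated, and 926.1 and 974.3 with LGG in its brighter probe set, where the LGG values lay between the untreated ones (log2 change 0.02 ± 0.21, SE; limma, adjusted p = 0.98). Its dimmer probe set measured 170.5 and 167.3 untreated, and 84.4 and 271.9 with LGG, so the LGG arrays lay on opposite sides of the untreated ones.

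Dbp, the output factor that acts on D-boxes such as those before Per3, measured 122.5 and 108.1 in untreated cells at dates 1 and 2, and 104.7 and 104.1 in LGG cells. The difference was small (log2 change -0.11 ± 0.28, SE; limma, adjusted p = 0.871). A further probe set, of a type that can match several transcripts, had values at date 2 only, 98.4 untreated and 77.4 with LGG, and has no replicate check.

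**Figure D2:**
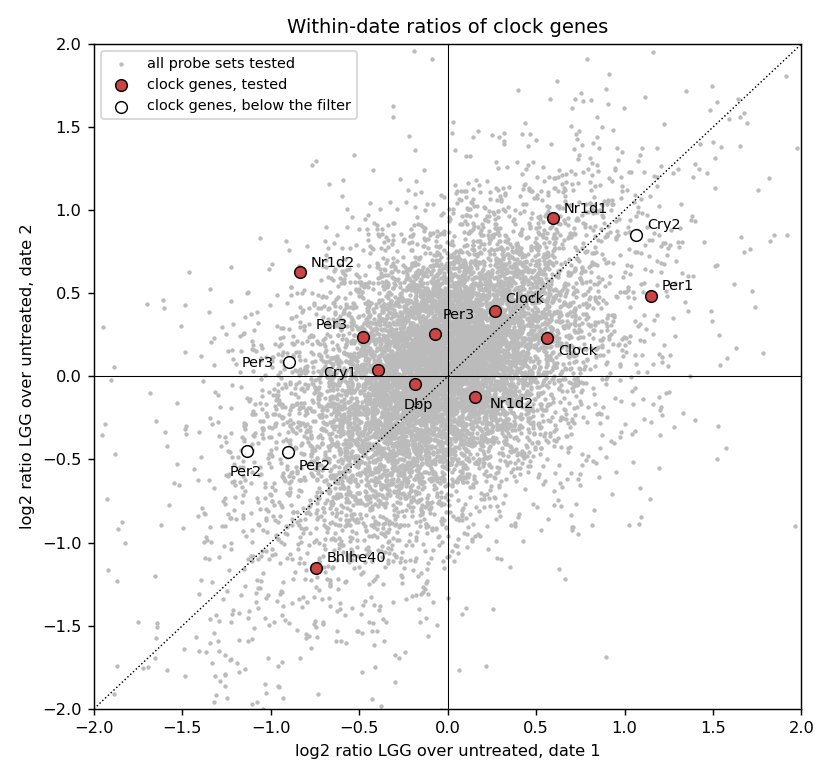
Log2 ratio of LGG over untreated at date 1 (horizontal) and date 2 (vertical) for the 15 clock probe sets with values on all arrays, over all 10333 probe sets tested (grey, those beyond the axes not shown); white points were below the filter and the dotted line marks equal ratios. Nr1d1, Cry2 and Per1 stand at the upper right, Bhlhe40 (-0.74 and -1.15) and Per2 at the lower left, and 1 probe set of Nr1d2 at the upper left (-0.84 and 0.63).

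Taken array by array, the LGG arrays lay above the untreated ones in 4 of the 11 clock probe sets tested (Per1, Nr1d1 and both of Clock), below in 2 (Bhlhe40 and Dbp) and overlapped in 5. Over all probe sets tested these arrangements took 23.4% (above) and 23.6% (below). Of the 4 dim clock probe sets 1 was above (Cry2) and 2 below (both of Per2). For the 1981 probe sets of like intensity (a mean of 50.5 to 101, a range set after the values were seen) the shares were 18% and 17.6%. On the linear intensities, 2 of 15 probe sets were at least 1.5-fold higher with LGG at both dates (Nr1d1 and Cry2) and 3 at least 1.5-fold lower (Bhlhe40 and both of Per2), against 5.16% and 6.07% of all 16319. On log2(intensity + 25.2) Per2 did not reach 1.5-fold at date 2, which left 2 higher and 1 lower, against 3.05% and 3.64%. The sign was the same at both dates in 6 of the 11 probe sets tested, against 64.1% of all.

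Bhlhe40 also had the largest difference between the dates. It was higher at date 2 than at date 1 by 0.71 ± 0.23 on the log2 scale (SE; limma, adjusted p = 0.266) in the same fit, in both groups. No clock probe set passed on the date by limma (0 of 11, against 0.513% of all probe sets), and 1, Bhlhe40, had an unadjusted p under 0.05, against 11.3% of all. Per1 (-0.45) and Cry1 (-0.40) were lower at date 2, and Per3 (0.39 and 0.23) and Nr1d2 (0.71 and 0.21) were higher, none of which passed.

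Likeness of pattern was measured as the distance between log2 values, each centred on its mean over the 4 arrays, among the 6951 other genes tested. The genes nearest to Bhlhe40 were St3gal1, a sialyltransferase (distance 0.174), Bnip3, a mitochondrial protein of the BCL2 family (0.187), and Il33, a cytokine of barrier tissues (0.239). At dates 1 and 2, Bnip3 measured 1195.7 and 2069.9 in untreated cells, and 771.4 and 997.1 with LGG. Those nearest to Per1 were Vat1 (0.0587), Noct (0.124) and Chac1, a glutathione-degrading enzyme (0.135). With 4 arrays such distances are a description only.

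Noct is itself a rhythmic gene, which encodes nocturnin, a phosphatase of NADPH, and it belonged to a list of clock outputs. It measured 447.7 and 454.2 in untreated cells at dates 1 and 2, and 1087.9 and 659.3 on the LGG arrays, so both LGG arrays were higher and the one of date 1 highest, as for Per1. Noct rose by 0.87 ± 0.24 on the log2 scale (SE; limma, adjusted p = 0.0482), a call close to the threshold that was lost in each of 8 other settings (adjusted p of 0.0505 to 0.198). With 1 array left out and no block the change of Noct ran from 0.52 without LGG replicate 1 to 1.23 without LGG replicate 2.

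The other genes of the clock were taken from 4 lists, chosen with earlier results of these data known. Each gene counted once, 4 of 40 tested rose and 1 fell, or 12.5%, against 6.5% of all genes. With lists so chosen the share is no independent comparison with the background, and the difference was not tested. The median log2 change of the 40 genes was -0.05, against 0.03 over all genes. Of the 5 other loop genes and PAR bZIP factors tested, 0 passed by limma, and their median change was -0.02. Arntl, which encodes BMAL1, measured 179.4 and 234.4 untreated, and 174.9 and 118.8 with LGG (log2 change -0.44 ± 0.28, SE; limma, adjusted p = 0.424), lower mainly at date 2. Rora, an activator of Arntl, had a log2 change of 0.43, Tef, a relative of Dbp, -0.42, and Nfil3, a repressor at D-boxes, 0.22, none of which passed.

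Of 18 kinases, ubiquitin ligases and other regulators of clock proteins tested, 2 rose, 0 fell and 16 did not pass (median -0.05). These calls were 11.1% of the list, against 6.5% of all genes. Csnk1e, which encodes casein kinase 1 epsilon, a kinase that marks PER proteins for degradation, measured 870.1 and 1125.5 in untreated cells at dates 1 and 2, and 2246.9 and 1545.9 in LGG cells. Both LGG arrays were above both untreated ones, and the rise was larger at date 1 (log2 ratios 1.34 and 0.45). Its probe sets gave log2 changes of 0.90 ± 0.23 and 0.92 ± 0.22 (SE; limma, adjusted p = 0.0333 and 0.0242). For the brighter probe set, with 1 array left out and no block, the change ranged from 0.63 to 1.16. Csnk1d, the gene of the related delta kinase, had log2 changes of -0.45, -0.29 and -0.21 in 3 probe sets and did not pass in any.

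Gsk3b, a kinase known to act on REV-ERB alpha, PER2 and other clock proteins, measured 402 and 243.3 untreated, and 762.4 and 531.8 with LGG. The LGG arrays were higher at each date, by log2 ratios of 0.88 and 1.05 (fitted change 0.97 ± 0.23, SE; limma, adjusted p = 0.0247). With 1 array left out and no block the change ran from 0.63 without untreated replicate 2 to 1.30 without untreated replicate 1. Btrc, a ubiquitin ligase subunit that binds marked PER proteins, measured 257.2 and 292 untreated, and 427 and 589.1 with LGG, a log2 difference of 0.82 ± 0.24 that missed the threshold (SE; limma, adjusted p = 0.0609). With 1 array left out and no block, its change ran from 0.60 without LGG replicate 2 to 1.04 without LGG replicate 1. A dimmer probe set of Btrc, below the limit for testing, ran from 62.6 to 82.1 and the groups overlapped. Wdr5 (0.34), Sirt1 (-0.35) and Timeless (-0.40) did not pass.

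Of 8 genes tested from the list of inputs to the clock, 1 rose, 0 fell and 7 did not pass (median -0.16). The call was 12.5% of the list, against 6.5% of all genes, and its gene, Tsc22d3, was also listed as an output. Tsc22d3, which encodes the glucocorticoid-induced leucine zipper protein, measured 104.5 and 167.3 untreated, and 294.3 and 312.5 with LGG. It was higher at both dates (log2 change 1.06 ± 0.26, SE by limma, adjusted p = 0.0302). With 1 array left out and no block the change ran from 0.77 to 1.34. A further probe set of Tsc22d3 rose by 1.18 ± 0.27 (SE by limma, adjusted p = 0.0203), and in another the groups overlapped (log2 change 0.42, not passed). The immediate early gene Fos measured 486.3 and 353.2 untreated, and 1444.1 and 243.3 with LGG, so it was higher at date 1 and lower at date 2 (log2 change 0.51, adjusted p = 0.463). Without LGG replicate 1 the change of Fos was -0.71, and without LGG replicate 2 it was 1.74 (no block). The cyclic AMP factors Creb1 (-0.45) and Crem (-0.25) and the kinase Sik1 (-0.41) did not pass.

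Of 11 rhythmic output genes tested, 2 rose, 1 fell and 8 did not pass (median 0.22). The calls were 27.3% of this list, which was chosen with earlier results known, against 6.5% of all genes. Those that rose were Noct and Tsc22d3, the latter counted in both lists. Tspan4, a tetraspanin of the cell membrane, fell from 1170.7 and 1134.3 on the untreated arrays to 758.4 and 415 on the LGG arrays, more at date 2 (log2 change -1.004 ± 0.24, SE; limma, adjusted p = 0.0239). Leaving out LGG replicate 2, with no block, gave -0.59, whereas leaving out LGG replicate 1 gave -1.42. Alas1, the rate-limiting enzyme of haem synthesis (0.73), Cdkn1a, a cell cycle inhibitor (-0.44), Ccnd1 (-0.28) and Klf10 (0.24) did not pass. Without the date as a block 0 of the 5 called genes of these lists passed. The adjusted p by limma was 0.127 for Csnk1e, 0.175 for Gsk3b, 0.124 for Tsc22d3, 0.175 for Noct and 0.144 for Tspan4. Counting this setting, the call was lost in 4 of 8 other settings for Csnk1e and for Tspan4. For Gsk3b it was lost in 2 of 8, and for Tsc22d3 in 2 of 7.

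**Figure D3:**
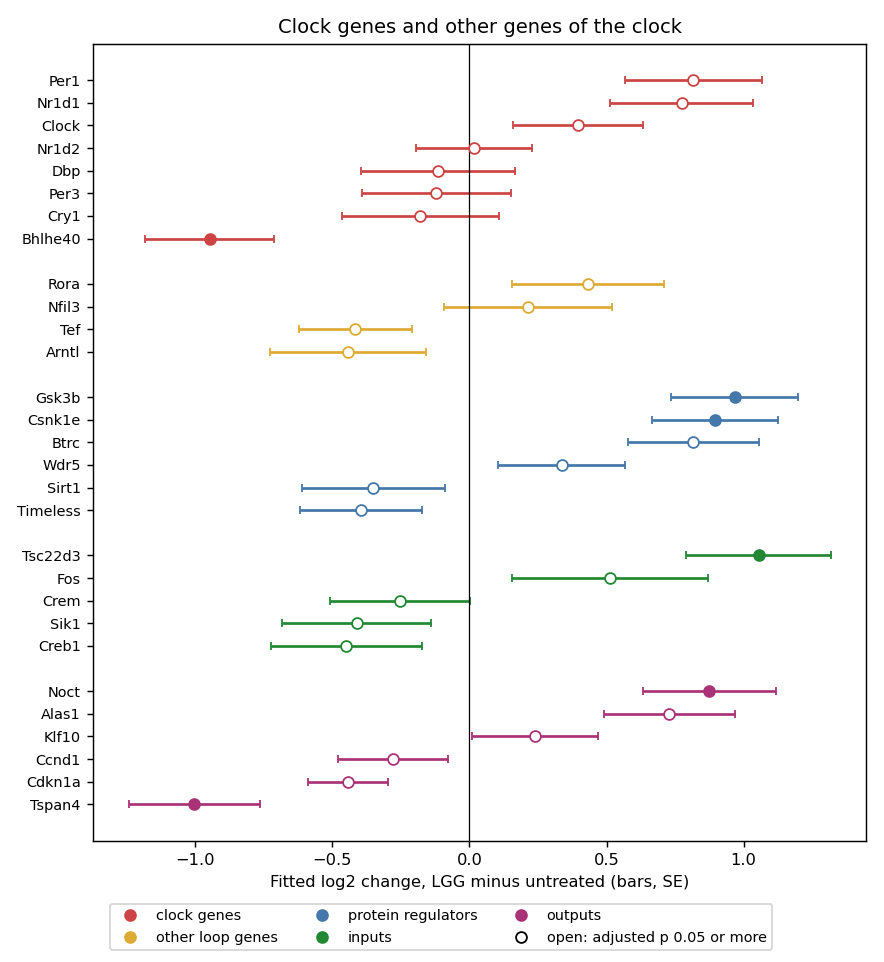
Fitted log2 change with its SE for the 8 clock genes tested and the named genes of the other clock lists, by the brightest probe set of each; filled points passed (adjusted p under 0.05). Bhlhe40 (-0.95) is the only filled point among the clock genes, and Gsk3b, Csnk1e, Tsc22d3, Noct and Tspan4 are filled among the others.

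**Figure D4:**
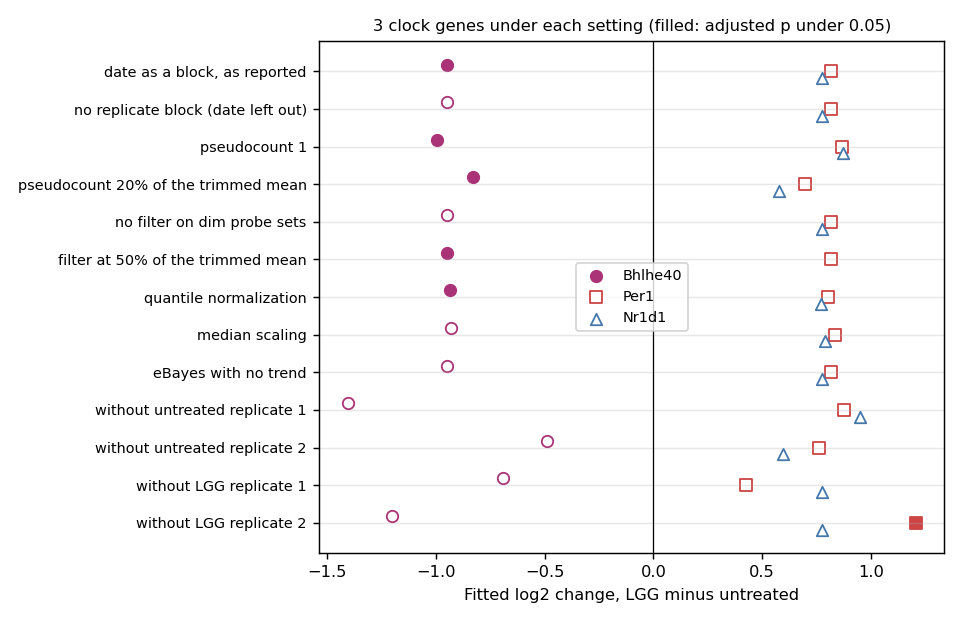
Fitted log2 change of Bhlhe40, Per1 and Nr1d1 under the reported fit and each alternative, filled where the adjusted p was under 0.05; Nr1d1 was too dim for the stricter filter. The 3 genes kept their direction under every setting shown. With all 4 arrays, the block, filter and trend settings leave the fitted change as it was. Bhlhe40 was filled in the reported fit and in 4 of the 8 other settings with all 4 arrays, and Per1 and Nr1d1 in none of these. The fit without the filter called 0 of 16319 probe sets. Fits with 1 array left out leave 1 array in a group, so their fill is not read gene by gene.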

How the data were processed

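Total RNA of 2 untreated and 2 LGG arrays was profiled on the mouse 430A array, per the labels. The values used are linear intensities deposited by the authors, with software and scaling not given in the sources used here. Both arrays of date 1 lacked values for 6307 probe sets, which were not tested. Groups came from the titles. The dates pair 1 array of each group and entered the fit as a block; across probe sets the date difference of the untreated arrays correlated at 0.27 with that of the LGG arrays. What the dates mark is not given.

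Values were used as log2(intensity + 25.2), the pseudocount being 5% of the trimmed mean (505). The 64 control probe sets and those with a mean under 101 (20%) were left out. Each probe set was fitted in limma 3.58.1 (R 4.3.3) on group plus date, with eBayes and its intensity trend (two-sided, Benjamini-Hochberg adjustment over all 10333 probe sets, threshold 0.05), and the fit was tested on simulated data. The brightest tested probe set stood for a gene. Named were all 10 clock genes, every called gene of the other clock lists and up to 4 more per list by size of change; for Bhlhe40 and Per1, the 3 genes of nearest pattern. Csnk1d and markers were added after their values were seen. The clock genes and lists were chosen with earlier results of these data known. Of 22690 probe sets, 20393 had 1 symbol, 691 several and 1606 none, and none was named from several. The number of arrays limits the precision. Figures used matplotlib 3.10.9.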

Additional observations from a re-analysis of the deposited data

Results flagged for a closer look

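On log2(intensity + 25.2), changes of at least 1.5-fold in opposite directions at the dates were seen in 0.6% of the 10333 probe sets tested, and among the genes of the clock in 2. The dimmer tested probe set of Nr1d2 had a log2 ratio of LGG over untreated of -0.84 at date 1 and 0.63 at date 2, while the brighter probe set of the gene had 0.16 and -0.12. Egr1, an immediate early gene, had 1.09 and -0.84, with intensities of 2119.5 and 1509.9 on the untreated and 4553.3 and 829.9 on the LGG arrays of dates 1 and 2. With 1 array per group and date, the difference between the dates was not tested.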

How the results depend on the processing

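Over 8 other settings (no replicate block, 2 other pseudocounts, no filter, a filter at 50% of the trimmed mean, quantile normalization, median scaling, no intensity trend), 0 of 32 probe sets changed direction. These were the tested probe sets of the clock genes and the brightest of each named gene of the other lists, named for a call or by size of change. Of the 32, 14 were too dim for the filter at 50%. Per2, Cry2, Csnk1d, Egr1, the other genes of the lists and the genes of like pattern other than Noct were not followed across these settings. The count of clock genes called was 1 as reported, and 0 without the replicate block (date left out), without the filter, with median scaling and without the trend, where the adjusted p of Bhlhe40 was 0.23, 0.155, 0.055 and 0.0556; the count of clock probe sets was 0 in the same settings. Over all probe sets, 97 of 10333 passed without the block and 378 without the trend, against 677, and 0 of 16319 passed without the filter (2296 at an unadjusted p under 0.05). In a limma fit on the mean of each gene's tested probe sets, 3 clock genes passed, Bhlhe40, Per1 (adjusted p = 0.00451) and Nr1d1 (0.0243). Each of the 3 has 1 tested probe set, so nothing was averaged for them and their fitted changes were as reported. Only the SE, the degrees of freedom and the adjustment differed. That fit called 13.6% of all genes, with 287 prior degrees of freedom against 12.5. The fits with 1 array left out and no block leave 1 array in a group, so calls in them are not read gene by gene. Their changes also mix the date difference with that of the treatment. Without untreated replicate 1 or 2, limma called 0 of all probe sets (729 and 818 at an unadjusted p under 0.05). The ranges of log2 change that crossed 0 with 1 array left out were -0.49 to 0.25 and -0.10 to 0.29 for Per3, -0.49 to 0.13 for Cry1, -0.16 to 0.19 and -0.82 to 0.61 for Nr1d2, -0.26 to 0.69 for Nfil3 and -0.71 to 1.74 for Fos. The clock count on the date stayed 0 under quantile normalization and median scaling. The cause of these differences was not tested.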
